A study of Caenorhabditis elegans with 12 samples.

Results

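ETS-5 is a worm transcription factor of the ETS family, and 718 regions of the genome were found in replicates 1 and 2 of its precipitate but not in replicate 3. They are 13.2% of 5455 regions in all. The series used chromatin immunoprecipitation with sequencing (ChIP-seq), in which DNA bound by a protein is recovered with an antibody and mapped, on whole-worm extracts of Caenorhabditis elegans. Its 12 samples form 4 groups of 3: ETS-5 precipitates and ETS-5 inputs from strain FQ237, whose worms carry an ets-5-gfp fusion (GFP, green fluorescent protein), and wild-type precipitates and wild-type inputs from strain N2. All worms were fed E. coli OP50, and the labels name the same anti-GFP antibody for every sample. The labels give no age, no stage, no promoter for the fusion and no word on separate cultures for the samples of a group, so differences between replicates may be technical.

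ETS factors bind DNA through a conserved domain that reads a short purine-rich core, and they act in cell fate and in the mature identity of neurons. ETS-5 is best known from BAG, the left and right head neurons that sense oxygen and carbon dioxide, and it has been tied to serotonin and feeding state in other head neurons. In an extract of whole animals such neurons are a small part of the chromatin. A gene with no window may thus be bound in few cells or not at all, and the lists cannot tell these apart.

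Only the 3 window lists of the ETS-5 precipitates were used. The 9 other samples were not analysed here, so enrichment over input or over wild-type worms was not measured. The lists held 3811, 2915 and 3697 windows in replicates 1, 2 and 3, each 400 bp wide, without counts or scores of any kind, so the depth behind a window is unknown. Windows of the 3 lists were joined where they overlapped by 1 bp or more. A region that held windows of replicates 1 and 2 and none of replicate 3 is called a replicate 1+2 region below. A region with windows of all 3 replicates is called an all-3 region, and there were 1788 of these. Replicates 1 and 3 alone had 488 regions, replicates 2 and 3 alone had 178, and 814, 229 and 1240 regions were seen once, in replicates 1, 2 and 3. The replicate 1+2 regions were chosen by the presence and absence of windows, and what follows about their lines and gaps in the lists is a description with no test. Gene annotation and position along the chromosome were not part of that choice and were tested.

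Each of the 718 regions was made of exactly 1 window of each of the 2 replicates. The centres of these windows lay a median of 25 bp apart (quartiles 11 and 45 bp, highest 382 bp), against a median of 21 bp between the replicate 1 and 2 windows of all-3 regions. Replicate 1+2 regions made up 18.8% of the windows of replicate 1 and 24.6% of those of replicate 2.

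The regions stood mostly in the middle of both lists. No file says what the line order stands for. Line numbers are given below as a percentage of the list, with low values for early lines. The median place was 48.7% in replicate 1 and 61.7% in replicate 2, against 27.7% and 36.3% for all-3 regions. Averaged over the 2 lists, 41.9% of replicate 1+2 regions stood in the earlier 50% of lines, against 69.7% of all-3 regions. In the first 10% of the lines, 5.76% of replicate 1 windows and 2.40% of replicate 2 windows belonged to these regions. In steps of 10% of the lines, the share was highest at 40% to 50% in replicate 1, with 29.1%, and at 60% to 70% in replicate 2, with 37.7%. It was 9.71% and 21.3% in the last 10%. Across the 718 regions the line numbers of the 2 replicates had a Spearman correlation of 0.70, a description over regions that come from the same 2 libraries.

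**Figure D1:**
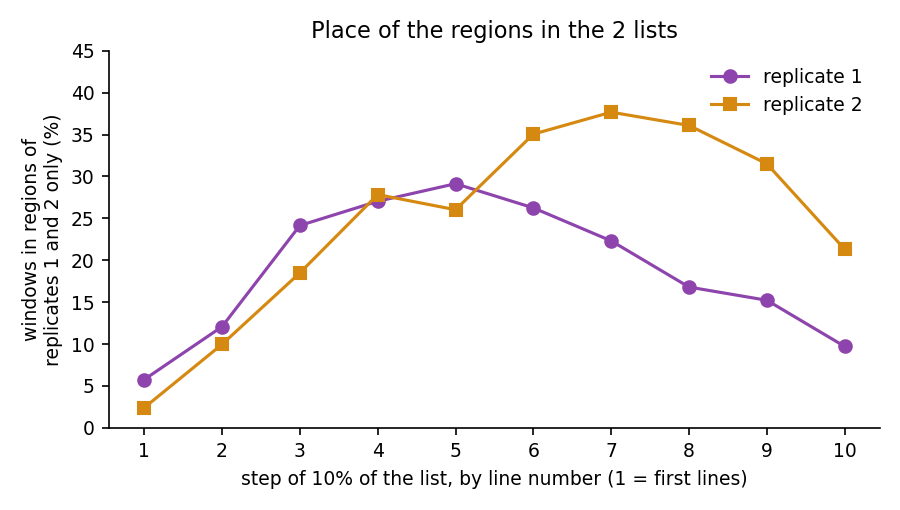
Share of the windows in each step of 10% of a list's lines, in percent, that belong to replicate 1+2 regions, for replicate 1 (circles) and replicate 2 (squares), ordered by line number. The first steps hold 5.76% and 2.40% and the peaks are 29.1% and 37.7%.

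Most of the regions had no replicate 3 window close by. The gap to the nearest replicate 3 window had a median of 7159 bp, with quartiles of 1817 and 20841 bp. Within 1000 bp lay a replicate 3 window for 110 regions (15.3%), within 100 bp for 8 and within 50 bp for 4. The 3 regions just inside the limit were 1 at F59C12.3 and F59C12.4 on chromosome X with a gap of 17 bp, 1 on chromosome X whose nearest gene was C34F6.10 with 26 bp, and 1 near T08H10.3 on chromosome V with 28 bp. Just outside it, the smallest overlaps that joined a replicate 3 window to an all-3 region were 14 bp near let-60, the Ras gene, and ZK792.12, then 15 bp near tba-2, an alpha-tubulin gene, and pbs-2, a proteasome gene. Next came 3 regions with 16 bp, the first of them inside Y57A10A.13. The median overlap in all-3 regions was 380 bp.

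**Figure D2:**
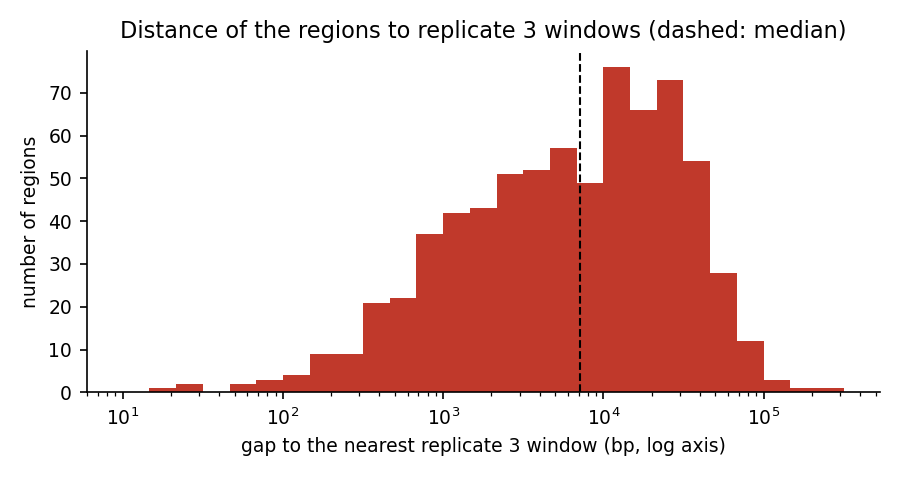
Number of replicate 1+2 regions by the gap in bp, on a log axis, between the region and the nearest replicate 3 window. The dashed line is the median of 7159 bp, and 15.3% of the regions lie at 1000 bp or less.

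Positions are given as in the files, with 1 added to each start because the files were taken to be zero-based, and the sources used here name no genome build for them. By the mean of its places in the 2 lists, the first region lay on chromosome III from 11338368 to 11338807, at line 99 of replicate 1 and line 128 of replicate 2, inside both T28D6.5 and T28D6.6, with a replicate 3 window 294 bp away. The second, on chromosome V from 12530088 to 12530535 near F45D3.1, was at lines 241 and 64, and replicate 3 had nothing within 19771 bp. The third, on chromosome IV from 12834232 to 12834647, was at lines 186 and 113, 2068 bp from M02B1.3, and its gap to replicate 3 was 51804 bp. High places in the 2 lists thus occurred both beside and far from replicate 3 windows.

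Others among the 15 highest lay at genes of known function. One was 469 bp outside lit-1, a Nemo-like kinase of Wnt signalling, at lines 294 and 146. One was inside shw-3, a Shaw-type potassium channel gene, at lines 218 and 205 with a gap to replicate 3 of 11238 bp. A region near spc-1, which encodes alpha-spectrin, stood at lines 250 and 385, with a gap of 236 bp. A region near ape-1, a relative of mammalian inhibitors of p53, stood at lines 366 and 343, with a gap of 327 bp.

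The region near tkr-2, a tachykinin-type neuropeptide receptor gene, was at lines 174 and 587, and no replicate 3 window lay within 93110 bp. A region near C46H11.1 and the formin gene fhod-1 stood at lines 473 and 298. A further 5 lay near C55B7.10, Y54G2A.48, Y43E12A.2 and F42A9.6 and inside tag-273. Of these 5, the one near Y54G2A.48 had the smallest gap, 969 bp, to a replicate 3 window that was itself at line 24 of its list.

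Relative to protein-coding genes, the replicate 1+2 regions lay less often just outside a gene than all-3 regions did, and the other 3 place classes did not pass the test of a difference. Inside a gene lay 263 of 718 replicate 1+2 regions (36.6%, exact 95% binomial interval 33.1% to 40.3%), against 633 of 1788 all-3 regions (35.4%, 33.2% to 37.7%). The odds ratio was 1.05 with an interval of 0.877 to 1.27 (Fisher's exact test, two-sided, adjusted p = 0.706). From 1 to 500 bp outside the nearest gene lay 114 replicate 1+2 regions (15.9%, 13.3% to 18.8%), against 373 all-3 regions (20.9%, 18.999% to 22.8%). That share was lower (odds ratio 0.716, interval 0.563 to 0.905, adjusted p = 0.0246 by Fisher's exact test). Between 500 and 2000 bp outside lay 25.2% against 23.8% (odds ratio 1.08, 0.879 to 1.33, adjusted p = 0.622) and beyond 2000 bp 22.3% against 19.97% (odds ratio 1.15, 0.925 to 1.42, adjusted p = 0.377), neither passing Fisher's exact test. These p-values were adjusted over 45 tests, namely 15 features against each of 3 other sets of regions, and those within parts of the lists or on autosomes over the 15 features. Regions are counted here as independent, which neighbours are not, and the intervals cover counting error only.

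The lower share next to genes did not hold in every setting. It was 17.1% against 20.9% when replicate 1+2 regions with a replicate 3 window within 1000 bp were left out (odds ratio 0.783, adjusted p = 0.159 by Fisher's exact test). Within the earlier 50% of lines it was 15.6% against 20.9% (odds ratio 0.703, adjusted p = 0.183 by the same exact test), and within the later 50% it was 16.1% against 20.9% (odds ratio 0.725, adjusted p = 0.498). The odds ratio thus stayed below 1 in these settings while the call was lost. Each part of the lists holds fewer regions, and whether this lost the call was not tested.

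For regions outside genes the distance to the nearest gene had a median of 1343 bp (quartiles 500 and 2800 bp) in the replicate 1+2 set, against 1025 bp (326 and 2485 bp) in the all-3 set. Replicate 1+2 regions inside genes lay well within them. The genes were a median of 10500 bp long, against 9717 bp for all-3 regions, and the nearest end of the gene was a median of 2702 bp away, against 2506 bp. Over 500 bp from either end lay 31.1% of all replicate 1+2 regions and 30.2% of all-3 regions. The gene table gives no strand and no exons, so 5' and 3' ends, exons and introns could not be told apart.

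Against the other pairs of replicates, the share inside genes lay between theirs. Inside genes lay 36.6% of replicate 1+2 regions, against 43.9% of regions of replicates 1 and 3 alone (odds ratio 0.740, adjusted p = 0.0520 by Fisher's exact test) and 19.7% of regions of replicates 2 and 3 alone (odds ratio 2.36, adjusted p = 0.000178). From 1 to 500 bp outside genes lay 15.9%, against 18.2% in replicates 1 and 3 alone (adjusted p = 0.447) and 32.6% in replicates 2 and 3 alone (odds ratio 0.391, adjusted p = 3.06e-05 by the same exact test). Between 500 and 2000 bp outside lay 25.2% against 18.6% in replicates 1 and 3 alone (odds ratio 1.47, adjusted p = 0.0344 by Fisher's exact test). Of the regions seen once, 14.4% of those of replicate 1, 28.8% of replicate 2 and 25% of replicate 3 lay 1 to 500 bp outside. Regions of replicate 1 alone thus had a share close to the 15.9% of replicate 1+2 regions, a difference that was not tested. The lists differ here as libraries too: 39.0%, 33.8% and 36.9% of the windows of replicates 1, 2 and 3 lay inside genes, and 18.2%, 21.1% and 22.5% lay 1 to 500 bp outside. The part of these library differences in the comparisons was not tested.

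**Figure D3:**
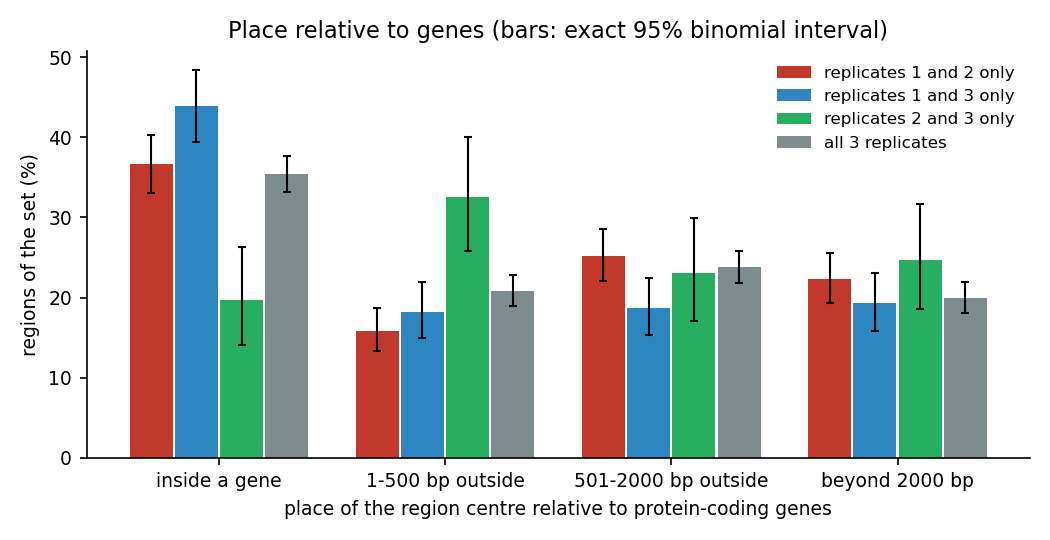
Percentage of regions in each place class, by the distance of the region centre from the nearest protein-coding gene, for 4 sets of regions with replicate 1+2 regions at the left and all-3 regions at the right of each class. Thin lines are exact 95% binomial intervals. The first class shows 36.6% for replicate 1+2 regions, 43.9% and 19.7% for the other pairs and 35.4% for all-3 regions.

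The replicate 1+2 regions lay more often in the middle of the chromosomes. Worm autosomes have a gene-dense centre between arms that are richer in repeats and recombine more, and on the X chromosome this contrast is weak. The centre was taken as the stretch from 33.3% to 66.7% of a chromosome's length. In it lay 304 of 718 replicate 1+2 regions (42.3%, exact 95% binomial interval 38.7% to 46.05%), against 626 of 1788 all-3 regions (35.0%, 32.8% to 37.3%). The odds ratio was 1.36, with an interval of 1.14 to 1.63 (Fisher's exact test, adjusted p = 0.00455). In the other pairs the centre held 23.2% of regions of replicates 1 and 3 alone (odds ratio 2.44, adjusted p = 1.78e-10) and 26.97% of regions of replicates 2 and 3 alone (odds ratio 1.99 and, by the exact test of Fisher for both, adjusted p = 0.00140).

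By chromosome, the centre held 65 replicate 1+2 regions on chromosome II (56.5%), against 38.4% of all-3 regions there, and 63 on chromosome V (52.9%), against 39.7%. On chromosome I it held 45.7% against 36.3%, and on chromosome IV 40.3% against 33.99%. Chromosome III had the opposite order, with 26.4% against 30.1%, and on the X chromosome the values were 32.7% and 32.6%. On the 5 autosomes together the shares were 45.1% and 35.7% (odds ratio 1.48, adjusted p = 0.00206 by Fisher's exact test), a setting chosen after the data were seen. Differences between chromosomes were not tested.

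The replicate 3 library stood lower by this measure. Of all windows of replicate 3, 29.7% lay in a chromosome centre, against 34.9% and 36.9% in replicates 1 and 2, and of the regions seen once it was 25.2% for replicate 3, 35.1% for those of replicate 1 and 42.8% for those of replicate 2. The regions of replicate 2 alone thus had a central share close to the 42.3% of replicate 1+2 regions, a difference that was not tested. Whether the central share reflects the replicate 3 library as a whole was not tested. Within the later 50% of lines the shares were 41.5% for replicate 1+2 regions and 30.3% for all-3 regions (odds ratio 1.63, adjusted p = 0.00575 by Fisher's exact test). Within the earlier 50% they were 43.5% and 37.05% (odds ratio 1.31, adjusted p = 0.183 by the same exact test).

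**Figure D4:**
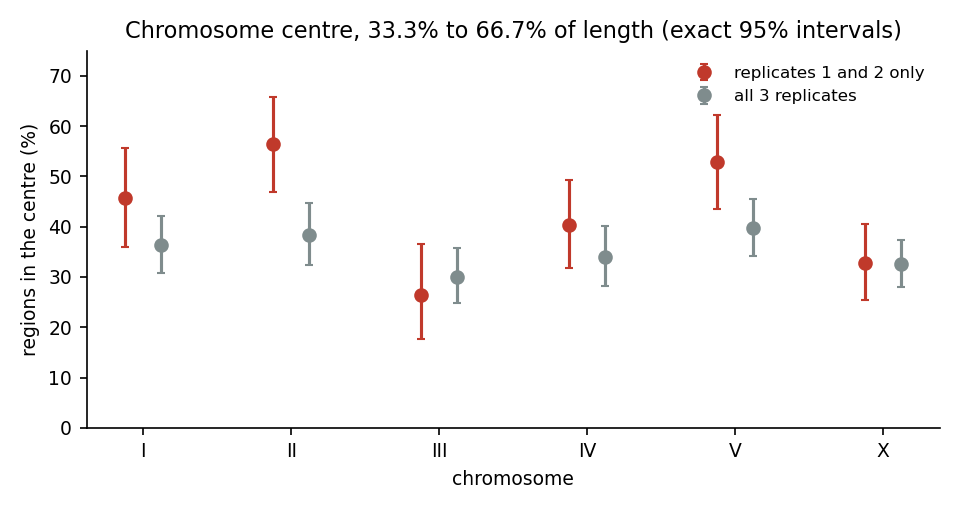
Percentage of regions in the centre of each chromosome, from 33.3% to 66.7% of its length, for replicate 1+2 regions (red, left of each pair) and all-3 regions (grey), with exact 95% binomial intervals. The red point is higher on chromosomes I, II, IV and V, lower on III, and at 32.7% against 32.6% on X.

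No chromosome's share of the replicate 1+2 regions passed the test of a difference from all-3 regions. The X chromosome held 22.1% of replicate 1+2 regions and 22.5% of all-3 regions (odds ratio 0.981, interval 0.791 to 1.21, Fisher's exact test, adjusted p = 0.914). Chromosome IV held 17.97% against 14.1% (odds ratio 1.33, 1.04 to 1.69, adjusted p = 0.0623 by the same exact test) and chromosome III 12.7% against 15.996% (odds ratio 0.762, 0.585 to 0.987, adjusted p = 0.0946), and the tests of chromosomes I, II and V gave adjusted p of 0.408 or more. Against the other pairs, 3 chromosome shares passed Fisher's exact test. Chromosome I held 14.6% of replicate 1+2 regions, against 23.4% of regions of replicates 1 and 3 alone (odds ratio 0.562, adjusted p = 0.00140 by the exact test). Chromosome III held 12.7%, against 24.2% of regions of replicates 2 and 3 alone (odds ratio 0.456, adjusted p = 0.00185 by the exact test), and the X chromosome held 22.1%, against 13.5% of the same set (odds ratio 1.82, adjusted p = 0.0385 by the exact test). Small RNA genes were rare at these regions. Within 200 bp of a transfer RNA, small nuclear RNA or small nucleolar RNA gene lay 4 of 718 replicate 1+2 regions (0.557%), against 20 of 1788 all-3 regions (1.12%, Fisher's exact test, adjusted p = 0.408) and 3.37% of regions of replicates 2 and 3 alone (adjusted p = 0.0293). The 4 were at the transfer RNA genes B0395.t1, K10C8.t1 and T22F7.t1 and the small nucleolar RNA gene F30A10.16. At small nuclear RNA genes there were 0 of 718, which allows a share of up to 0.512% by the exact 95% binomial interval and 0.418% by the limit of 3 counts. The microRNA genes mir-798 and mir-8192 each had 1 region within 200 bp.

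A gene was called near when a region's centre lay up to 2000 bp outside it, or inside it and up to 500 bp from one of its ends. By this measure 371 of 718 replicate 1+2 regions (51.7%) lay near a gene, against 55.4% of all-3 regions, and 139 (19.4%) lay near 2 or more, against 24.7%. These regions lay near 537 of 19971 protein-coding genes, which is 2.69%, while 7.44% of genes lay near an all-3 region. The 2 gene sets shared 64 genes, 11.9% of those at replicate 1+2 regions and 4.31% of those at all-3 regions. Counted this way, each of 528 genes had a single replicate 1+2 region near it and 9 had 2, among them spc-1, nhr-62, col-50, rskn-1, imph-1, C51E3.6, F13H8.11 and R03G5.6. Regions inside a gene and over 500 bp from its ends were left out of these counts. A region near 1 gene could also lie inside another. The lists below were chosen with earlier results of these data known, and their counts are descriptions beside the 2.69% and 7.44% of all genes.

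Of the 33 lists, serotonin pathway genes had the highest share. Of 11 genes, 4 lay near a replicate 1+2 region (36.4%) and 0 near an all-3 region. That tph-1 has windows in replicates 1 and 2 was known when this list was made, so its count is no independent evidence. The gene tph-1 encodes tryptophan hydroxylase, which makes the serotonin precursor, and its region on chromosome II from 7551564 to 7552131 lay inside the gene. It stood late in both lists, at lines 3206 and 2181, and the nearest replicate 3 window was 40001 bp away.

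The gene cat-4 encodes GTP cyclohydrolase, which is needed for the cofactor of tryptophan hydroxylase. Its region lay 395 bp outside the gene, at lines 2147 and 2142, with a gap to replicate 3 of 27093 bp and with vps-54 also in reach. The serotonin receptor gene ser-1 had a region 523 bp outside, at lines 1531 and 1001, with a gap of 5396 bp. The receptor gene ser-5 had the earliest of the 4, at lines 797 and 931 and 1765 bp outside, and a replicate 3 window at line 3575 of that list lay 712 bp from it. This region of ser-5 lay inside another gene, T19A6.1. Near the other 7 genes of the list, bas-1, cat-1, lgc-50, mod-1, mod-5, ser-4 and ser-7, no replicate 1+2 region was found. Inside or within 2000 bp of cat-1, a vesicular monoamine transporter gene, and mod-5, a serotonin transporter gene, replicate 3 alone had a window, at lines 1658 and 711, and at ser-4 replicate 1 alone had one, at line 3210. The remaining 4 genes, bas-1, lgc-50, mod-1 and ser-7, had no window of any replicate in that reach.

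Of 18 BAG neuron genes, 0 lay near a replicate 1+2 region, which is close to the 2.69% of all genes for so short a list, against 4 near an all-3 region, namely ets-5, tol-1, ceh-37 and gcy-33. No replicate 1+2 region lay inside or within 2000 bp of ets-5, the tagged gene, and its windows opened all 3 lists at line 1. The oxygen and carbon dioxide sensing genes gcy-9 and gcy-31 and the channel gene tax-4 had no window of any replicate inside or within 2000 bp, and flp-17, a neuropeptide gene, had 1 window, in replicate 3 at line 1586. Among 9 ETS factor genes, 0 lay near a replicate 1+2 region.

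Of 33 guanylyl cyclase genes, which make the cyclic GMP used in sensory transduction, 2 lay near a replicate 1+2 region (6.06%) and 3 near an all-3 region. The soluble cyclase gene gcy-34, known from oxygen-sensing URX neurons, had a region 704 bp outside at lines 487 and 975, with a gap to replicate 3 of 13892 bp. That region lay inside another gene, cpz-2. The receptor-type cyclase gene gcy-12 had a region 1047 bp outside at lines 861 and 993, with a gap of 10770 bp. Both stood in the earlier 50% of lines. Another, gcy-28, held 2 replicate 1+2 regions deep inside the gene, with 2 all-3 regions inside it as well.

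Pan-neuronal genes, which serve all neurons, mostly had all-3 regions. Near a replicate 1+2 region lay 3 of 25 (12%), against 14 (56%) near an all-3 region, with no gene in both. The 3 were unc-31, which encodes a factor of dense core vesicle release, unc-18, a Sec1/Munc18 partner of syntaxin, and rab-3, a small GTPase of synaptic vesicles. The region of unc-31 lay 244 bp outside, at lines 1174 and 1965, with a gap to replicate 3 of 1654 bp. That of unc-18 lay 442 bp outside, at lines 2884 and 1744, with a gap of 3255 bp and with stn-2 also in reach. That of rab-3 lay inside the gene at lines 2148 and 2349, and replicate 3 had 2 other windows inside or within 2000 bp of rab-3, the first at line 1172. Inside rab-3 also lay 2 all-3 regions, over 500 bp from its ends and so not counted as near.

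When regions anywhere inside a gene or within 2000 bp were counted, a measure chosen after the data were seen, 720 of 19971 genes (3.61%) had a replicate 1+2 region and 9.22% an all-3 region. The pan-neuronal count then was 5 of 25, with unc-119 and unc-13 added, against 17 (68%) with an all-3 region. By this measure rab-3 and unc-119 had both kinds of region. Counts of other lists rose as well, such as nuclear receptor genes from 5 to 11 of 269. The region of unc-119, a gene of axon development, lay at lines 2463 and 2242, with an all-3 region also inside. The region of unc-13, a vesicle priming factor gene, lay at lines 2353 and 2360, 45819 bp from replicate 3.

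Other neurotransmitter lists had a few genes each. Of 30 glutamate signalling genes, 4 lay near a replicate 1+2 region (13.3%) and 3 near an all-3 region. These were mgl-1, a metabotropic receptor gene, with a region inside it at lines 1869 and 1276, and the glutamate-gated chloride channel genes glc-2, glc-4 and avr-14, with regions 495, 1542 and 520 bp outside. The gap to replicate 3 was 17940 bp for glc-2, whose region lay inside another gene, F25F8.1, and 356 bp for glc-4. Of 18 GABA and dopamine genes, 1 did, unc-47, the vesicular GABA transporter gene, and its region was at line 3292 of replicate 1 but line 732 of replicate 2. Of 36 acetylcholine and nicotinic receptor genes, acr-10 alone did, against 9 near an all-3 region.

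Neuropeptide receptor genes, which encode receptors of signalling peptides, had 6 of 107 near a replicate 1+2 region (5.61%) and 9 near an all-3 region. They were tkr-2, frpr-15, dmsr-9, npr-3, npr-36 and ckr-1, of which npr-36 had both kinds of region. The region of frpr-15 was at lines 903 and 1093, with a gap to replicate 3 of 972 bp, and that of npr-3 957 bp outside at lines 1200 and 1291. The peptide genes themselves had 1 of 147 near a replicate 1+2 region (0.680%), nlp-47, at lines 545 and 1186 with no replicate 3 window within 104890 bp. Of 72 potassium channel genes 2 did, slo-1 and irk-1, and of 56 lgc channel genes 1 did, lgc-39. With regions anywhere inside a gene or within 2000 bp counted, 5 potassium channel genes, shw-3 among them, and 3 lgc genes had a replicate 1+2 region. By that measure 5 genes of each list had an all-3 region.

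Among developmental pathways, Wnt pathway genes had 3 of 20 near a replicate 1+2 region (15%) and 1 near an all-3 region. They were pry-1, an Axin-like scaffold gene, cfz-2, a Frizzled receptor gene, and gsk-3, the kinase gene of the same destruction complex, at 1863, 929 and 1699 bp outside and in the later 50% of lines. Ras pathway genes had 1 of 19, sos-1, an exchange factor gene, against 5 near an all-3 region. The TGF-beta pathway (18 genes), insulin pathway (10) and axon guidance (21) lists had 0 each near a replicate 1+2 region. With regions anywhere inside a gene or within 2000 bp counted, 3.61% of all genes had one. Axon guidance genes then had 2 (9.52%), unc-73 and unc-40, against 5 with an all-3 region. The insulin pathway list had 1, daf-16, against 4. Homeobox genes had 3 of 90 (3.33%), ceh-22, ceh-74 and ceh-89, bHLH factor genes 0 of 29 and nuclear receptor genes 5 of 269 (1.86%), among them nhr-281 and nhr-62. The bHLH factor gene hlh-30 held 3 replicate 1+2 regions inside, over 500 bp from its ends and so not counted as near. Cilium genes had 4 of 55 (7.27%), mks-5, nphp-1, dyf-11 and dyf-18, against 8 near an all-3 region.

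Lists of highly expressed or stress genes are given beside the 2.69% of all genes, a share at which a list of this size holds few genes or none. Ribosomal protein genes had 3 of 75 (4%), rpl-28, rpl-14 and rps-2, against 24 (32%) near an all-3 region. The list did not hold rpl-23A.2, which had a replicate 1+2 region 158 bp outside. Heat shock genes had 0 of 24 against 9 (37.5%, at 5 regions) and histone genes 0 of 72 against 5 (6.94%, at 2 regions). Proteasome genes had 0 of 33 against 4 (12.1%) and muscle genes 0 of 26 against 2 (7.69%). Of all genes, 7.44% lay near an all-3 region, close to the histone and muscle shares. Genes of histones and small heat shock proteins occur in near-identical copies, where mapped reads and thus windows are uncertain. No germline gene of 27 lay near a replicate 1+2 region, and among 31 major sperm protein genes msp-50 did. The germline gene gld-2 held 2 replicate 1+2 regions inside, over 500 bp from its ends and so not counted as near.

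Chemoreceptor genes, the largest list, had 9 of 1309 (0.688%), the earliest of them sre-42, srt-40 and srx-41, against 23 (1.76%) near an all-3 region, both below the share of all genes. Collagen genes had 5 of 176 (2.84%), led by col-90, close to all genes. Detoxification genes had 4 of 185 (2.16%), cyp-33C12, cyp-13B1, gst-42 and gst-35. C-type lectin genes had clec-182 alone of 239, and lipid metabolism genes fat-2 alone of 76, a fatty acid desaturase gene.

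**Figure D5:**
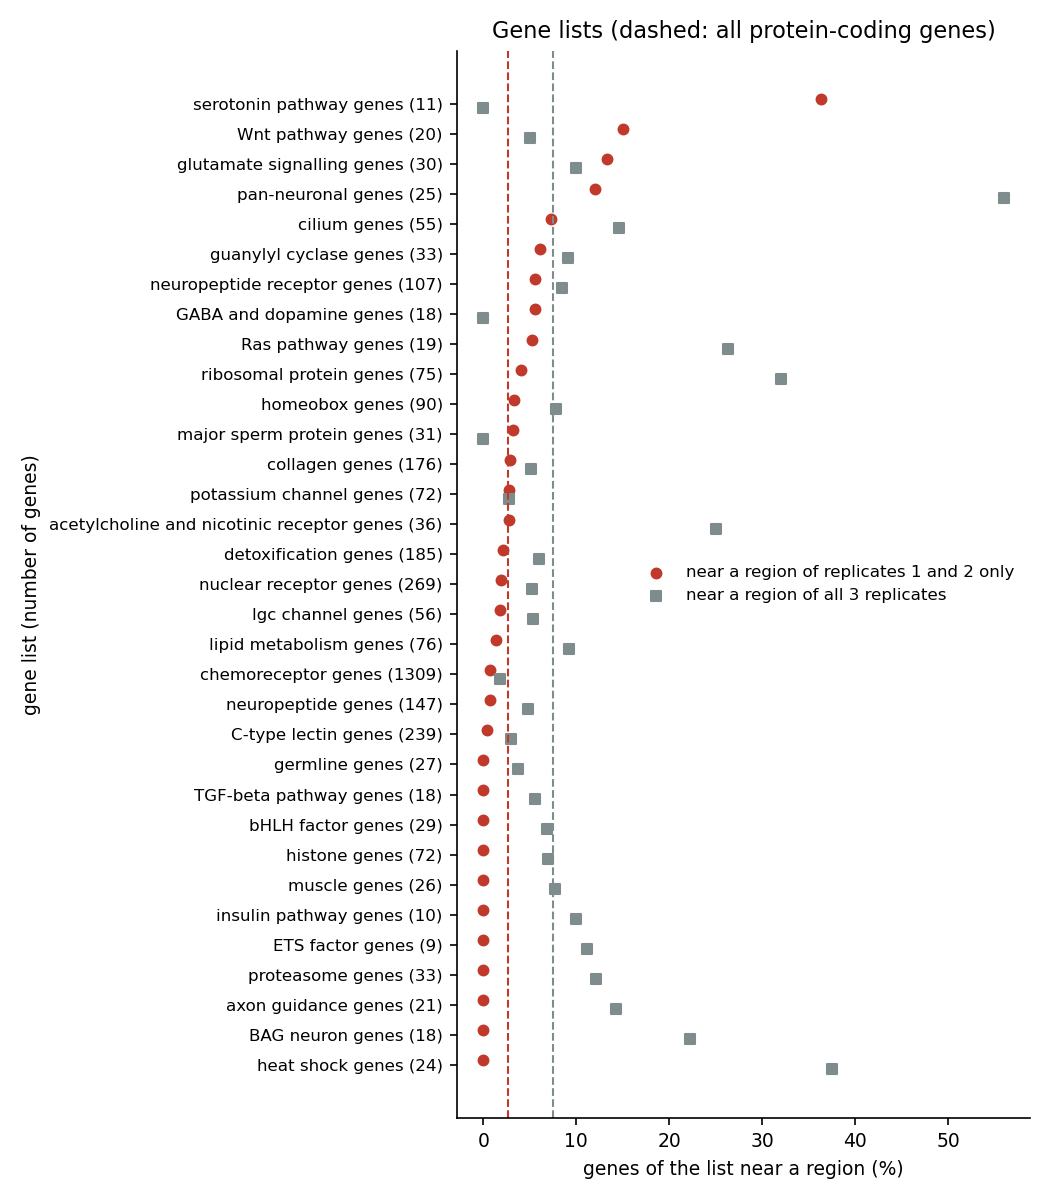
Percentage of the genes of each list near a replicate 1+2 region (red circles) and near an all-3 region (grey squares), with the number of genes in brackets. Dashed lines mark 2.69% and 7.44% of all protein-coding genes. Serotonin pathway genes are farthest right in red at 36.4%, and pan-neuronal genes in grey at 56%.

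Several large genes held more than 1 replicate 1+2 region. In all, 237 of 19971 protein-coding genes held at least 1 inside, 53 of them with an all-3 region inside too. The matching gene count for all-3 regions, of which 633 lay inside genes, is not given here, so these counts have no comparison. Of the 237 genes, 21 held 2 and 5 held 3. The 5 were ptp-3, a receptor tyrosine phosphatase gene of axons and synapses, kin-4, magi-1, a membrane scaffold gene, fkh-7, a forkhead factor gene, and hlh-30, a transcription factor gene of lysosomal and stress genes. They are named after their values were seen. Their lengths ran from 14243 bp in magi-1 to 36709 bp in ptp-3. The genes kin-4, magi-1 and hlh-30 held no all-3 region inside, but hlh-30 lay near an all-3 region. In kin-4 the highest-placed region was at lines 1022 and 1405 with a gap to replicate 3 of 33807 bp, and in hlh-30 at lines 1773 and 1729 with a gap of 2532 bp. The insulin pathway factor gene daf-16 held 2 replicate 1+2 regions and no all-3 region inside, the higher at lines 1971 and 1967.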

How the data were processed

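ChIP-seq window lists of the 3 ETS-5 precipitates were analysed, and the 9 other samples were not analysed here. The authors deposited 1 headerless list per sample, each line holding a chromosome and the 2 ends of a window. The submitters' processing notes name Bowtie2 and MACS2. For versions, genome build, threshold and control, nothing is given in the sources used here. Groups and replicate numbers came from the sample titles.

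Windows were joined at an overlap of 1 bp, and the window centres of a region were averaged to give its own. Genes came from a RefSeq table of the assembly WBcel235, with 19971 protein-coding genes on 6 chromosomes and no strand. The build match was checked by shifting the regions. Of the replicate 1+2 regions 36.6% lay inside genes as deposited, 43.5% and 43.3% after 500 bp to the left and right, and 63.2% and 64.2% after 5000 bp. The share was thus lowest as deposited, and the build was not checked otherwise. Chromosome length was taken up to the last gene or window.

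Shares were compared by Fisher's exact test (two-sided) with Benjamini-Hochberg adjustment over 45 tests (15 within parts of the lists and on autosomes, where the other pairs were left out) and a threshold of 0.05. The 33 gene lists got no test. The members, lists and rules were chosen with earlier results of these data known. Genes named are those at the 15 regions placed highest on average in lists 1 and 2, members of the lists near a region (up to 8 for most lists), 8 genes named in advance, small RNA genes at regions, genes at the limit of the rule and genes near several regions; exceptions are marked, and 1 of the 15 regions is not reported here. Merging and tests were checked on simulated lists. No sequences are shown, since none were used here, and a planned count of ETS core words in promoters was not run. Python 3.11.15, numpy 2.4.6, scipy 1.17.1 and matplotlib 3.10.9 were used.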

Additional observations from a re-analysis of the deposited data

How the results depend on the processing

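The place shares, the X chromosome, chromosome centre and small RNA shares and the counts of regions and near genes were recomputed. The settings were an overlap of 100 bp and centres taken without each replicate in turn. Others left out replicate 1+2 regions with a replicate 3 window within 1000 bp or used the earlier or later 50% of lines. Coordinates were also shifted by 100 bp, and other gene sets and reaches were used for place and near genes. For the shares of chromosomes I to V and the comparisons with the other pairs, no recomputed values are given. Odds ratios are of replicate 1+2 regions against all-3 regions, by Fisher's exact test. The share 1 to 500 bp outside genes lost its call without regions within 1000 bp of replicate 3 (0.783), in the later (0.725) and earlier (0.703) lines, with a shift of 100 bp to the right (0.783) and with all genes of the table (0.838). The chromosome centre share lost it in the earlier lines (1.31) and kept it in the other settings, including 2 other central ranges (1.52 and 1.37) and autosomes alone (1.48), chosen after the data were seen. Uncalled odds ratios changed direction for 500 to 2000 bp without regions within 1000 bp of replicate 3 (0.951), for chromosome X in the later lines (1.15), for beyond 2000 bp with all genes (0.825) and for the inside share when any base counted (0.923). The cause of these changes was not tested. Each part of the lists holds fewer regions. The shift, the setting with all genes and the any-base setting kept 718 replicate 1+2 and 1788 all-3 regions. The later and earlier lines held 417 and 301 regions near 315 and 227 genes, and a reach of 1000 bp outside and 0 bp inside left 266 genes. The lists give no depth, so a missing window cannot be told from too few reads. No paired analysis was possible because lists of 1 group were used.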

Other observations

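Other kinds of genes without a protein product were counted at the replicate 1+2 regions after the data were seen, with no test. Within 200 bp of a piRNA gene, whose small RNAs silence foreign sequences in the germline, lay 11 of 718 replicate 1+2 regions (1.53%), against 8 of 1788 all-3 regions (0.447%). Long non-coding RNA genes had 9 regions (1.25%) against 13 (0.727%), pseudogenes 4 (0.557%) against 13 (0.727%), and the broad class of other non-coding RNA genes 110 (15.3%) against 297 (16.6%). Many piRNA genes of this worm lie on chromosome IV, which held 17.97% of replicate 1+2 regions and 14.1% of all-3 regions. That chromosome difference did not pass Fisher's exact test, and whether it bears on the piRNA counts was not tested.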
